A study of Mus musculus with 12 samples.

Results

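Cell cycle and mitosis genes are described here in mouse macrophages polarized with IFNG or IL4. They are 49 genes chosen by symbol among the 19549 features of the count tables, a feature being a row named by 1 gene symbol or by several joined symbols. Of these genes, 42 had a row of their own. The other 7 were counted only in rows that also take reads of a neighbouring gene, namely Ccnd3 (with Bysl), Ccne2 (with Ints8), Ccna2 (with Exosc9), Cdc20 (with Elovl1), Kif20a (with Brd8 and Cdc23), Nusap1 (with Oip5) and Foxm1 (with 4933413G19Rik). Reads of the joined genes cannot be told apart, so each value of those 7 is a value of the whole row. By their textbook roles, 8 genes were placed in G1, 18 in S phase and 23 in G2/M.

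Bone marrow of naïve female FVB mice was differentiated into macrophages and exposed for 4 h to IFNG (interferon gamma, 200 units/mL, spelled both IFNG and INFG in the labels) or to IL4 (interleukin 4, 40 ng/mL). IFNG drives classical activation and IL4 alternative activation. About 10% of the cells gave total mRNA, and the rest were lysed and spun through a 5 to 50% sucrose gradient, from which mRNA carrying more than 3 ribosomes was pooled as polysome-associated mRNA. The 4 groups of 3 libraries were IFNG polysome-associated, IL4 polysome-associated, IFNG total and IL4 total mRNA, all made with SmartSeq2, a full-length cDNA method. No genetic change is named in the labels for any group. Every difference between treatments is IFNG set against IL4, because cells without either cytokine were not sampled. Separate mice or dishes are not stated for the replicates. The p-values therefore cover the spread among these 12 libraries only, and that spread may be technical.

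Cells enter the division cycle when D-type cyclins with CDK4 or CDK6, and then E-type cyclins with CDK2, phosphorylate the retinoblastoma protein and free the E2F transcription factors, which switch on the genes of DNA replication. Later, B-MYB and FOXM1 act with the MuvB complex on the genes of G2 and mitosis. Macrophages grown from bone marrow divide in response to CSF1, which induces the D-type cyclins, and interferon gamma is known to arrest such dividing macrophages.

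Total counts were 2563955 to 8789480 in the polysome libraries and 10443200 to 22014162 in the total libraries. Levels are given as CPM, counts scaled to a common library total with TMM factors, on which 3 counts corresponded to 0.184 to 1.13 CPM. Levels are compared between groups and never between genes, since transcript lengths were not used. All 49 genes passed the filter on low counts, with 10421 features tested in all. All 10 macrophage markers had reads, and their summed level was 11320 to 17090 CPM in the IFNG polysome, 8743 to 9116 CPM in the IL4 polysome, 13430 to 25130 CPM in the IFNG total and 8239 to 14320 CPM in the IL4 total libraries. With IFNG, 3 of these 10 were called higher in polysome-associated mRNA (7.54% of all features) and 1 in total mRNA (7.08%). None was called lower. Their log2 fold changes were -0.94 to 4.49 in polysome-associated and -0.59 to 4.37 in total mRNA. The summed level of the dendritic cell markers was 18.2 to 45.0 CPM in IFNG polysome, 0.818 to 2.27 CPM in IL4 polysome, 18 to 32.5 CPM in IFNG total and 8.63 to 19.4 CPM in IL4 total libraries, with Flt3 at 0. Of the 3 tested, 2 were called higher with IFNG in each fraction. Xcr1 measured 4.63 to 24.0 CPM with IFNG against at most 0.545 CPM with IL4. Clec9a measured 2.79 to 20.4 CPM with IFNG against 0 CPM with IL4. Batf3 gave most of the sum in the IL4 total libraries, at 7.4 to 18.8 CPM. In the IFNG total libraries it measured 5.61 to 11.6 CPM, which overlaps the IL4 range. Zbtb46 measured at most 1.135 CPM in any library, and that was in an IL4 polysome library. The part of these markers in the results was not tested. The library numbered 2 had the lowest summed G2/M level in each of the 4 groups and the highest Ccnd2 level in each of them, so results are also given without single libraries where that matters.

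Promoter sequences are shown because most S-phase and G2/M members were lower with IFNG, as described further on. The RefSeq promoter table of GRCm38.p6, with 250 bases before and 50 after each transcription start, held 47 promoters of 40 of the 49 genes. No entry was there for Ccnd1, Ccnd2, Ccna2, Ccne2, Mcm4, Aurkb, Kif20a, Foxm1 and Tpx2. Exact matches on both strands are given for the CHR, E2F and CCAAT motifs. The cell cycle genes homology region (CHR), the site of the MuvB complexes, was searched as TTTGAA or TTCGAA. The E2F site was searched as TTTCCCGC, TTTCGCGC, TTTGCCGC or TTTGGCGC, and the NF-Y box as CCAAT. E2F matches on opposite strands can overlap each other. The 6 promoters shown were chosen after these matches had been counted, as 3 mitotic genes with CHR matches, 1 without any match, and 2 S-phase genes with E2F matches. They lie at chr7:122159185-122159484 (+ strand, Plk1), chr1:189688037-189688336 (− strand, Cenpf), chr10:69352863-69353162 (− strand, Cdk1), chr11:117848987-117849286 (+ strand, Birc5), chr1:128359656-128359955 (− strand, Mcm6) and chr11:98907901-98908200 (+ strand, Cdc6). Each is written 5′ to 3′ on the strand of its gene, and capitals mark CHR, E2F and CCAAT matches.
Plk1 promoter: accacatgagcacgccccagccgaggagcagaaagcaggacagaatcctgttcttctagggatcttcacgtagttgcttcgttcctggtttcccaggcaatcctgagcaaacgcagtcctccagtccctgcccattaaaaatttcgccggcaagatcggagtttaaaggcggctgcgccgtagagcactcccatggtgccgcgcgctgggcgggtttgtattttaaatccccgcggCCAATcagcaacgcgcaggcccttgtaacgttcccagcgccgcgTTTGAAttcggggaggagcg
Cenpf promoter: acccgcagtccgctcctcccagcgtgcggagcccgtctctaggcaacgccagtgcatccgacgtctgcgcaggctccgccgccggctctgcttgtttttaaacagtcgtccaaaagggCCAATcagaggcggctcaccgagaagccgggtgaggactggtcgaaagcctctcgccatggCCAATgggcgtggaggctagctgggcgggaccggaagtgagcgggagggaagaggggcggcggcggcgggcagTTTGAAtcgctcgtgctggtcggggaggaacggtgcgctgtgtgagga
Cdk1 promoter: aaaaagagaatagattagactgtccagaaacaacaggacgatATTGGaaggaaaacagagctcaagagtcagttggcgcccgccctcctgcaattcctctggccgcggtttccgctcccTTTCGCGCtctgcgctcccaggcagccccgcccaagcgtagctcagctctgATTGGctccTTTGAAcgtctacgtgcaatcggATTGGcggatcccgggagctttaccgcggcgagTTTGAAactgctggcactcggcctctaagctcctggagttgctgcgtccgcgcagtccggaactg
Birc5 promoter: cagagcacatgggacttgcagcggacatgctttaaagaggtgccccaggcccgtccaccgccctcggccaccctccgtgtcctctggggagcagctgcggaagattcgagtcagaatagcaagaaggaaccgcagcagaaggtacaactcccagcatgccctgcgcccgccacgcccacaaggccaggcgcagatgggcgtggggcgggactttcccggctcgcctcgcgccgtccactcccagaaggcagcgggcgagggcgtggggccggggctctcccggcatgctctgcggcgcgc
Mcm6 promoter: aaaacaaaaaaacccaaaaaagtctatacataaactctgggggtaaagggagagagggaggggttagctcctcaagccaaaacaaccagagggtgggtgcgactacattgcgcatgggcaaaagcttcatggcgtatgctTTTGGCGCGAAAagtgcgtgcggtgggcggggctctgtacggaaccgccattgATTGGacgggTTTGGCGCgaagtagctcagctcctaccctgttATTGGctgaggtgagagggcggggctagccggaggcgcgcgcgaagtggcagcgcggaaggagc
Cdc6 promoter: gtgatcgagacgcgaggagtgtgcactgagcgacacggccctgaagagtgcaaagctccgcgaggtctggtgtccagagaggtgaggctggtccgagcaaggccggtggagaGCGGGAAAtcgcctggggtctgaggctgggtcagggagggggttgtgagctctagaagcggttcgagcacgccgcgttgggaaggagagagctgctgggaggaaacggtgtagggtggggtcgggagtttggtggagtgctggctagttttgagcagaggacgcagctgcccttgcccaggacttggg

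The promoter of Plk1 held 1 CHR match just after the start site and 1 CCAAT match before it, that of Cenpf 1 CHR and 2 CCAAT matches, and that of Cdk1 2 CHR, 3 CCAAT matches and 1 E2F match. The Birc5 promoter held no match to any of the 3 motifs. In Mcm6 there were 3 E2F matches, of which a pair on opposite strands share bases, and 2 CCAAT matches. Over all members, a CHR match was found in 15 of 20 G2/M promoters (75%), in 5 of 18 S-phase promoters (27.8%) and in none of 9 G1 promoters, against 19.2% of all 32851 promoters of this length and 13.9% of those of tested genes. An E2F match was found in 1 of 20 G2/M promoters (5%), 7 of 18 S-phase promoters (38.9%) and none of the G1 promoters, against 2.26% of all promoters and 3.98% of those of tested genes. CCAAT was found in 85% of the G2/M, 77.8% of the S-phase and 33.3% of the G1 promoters, against 37.4% of all. A match is a run of letters and not a bound site, and several of these genes have more than 1 promoter in the table.

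**Figure D1:**
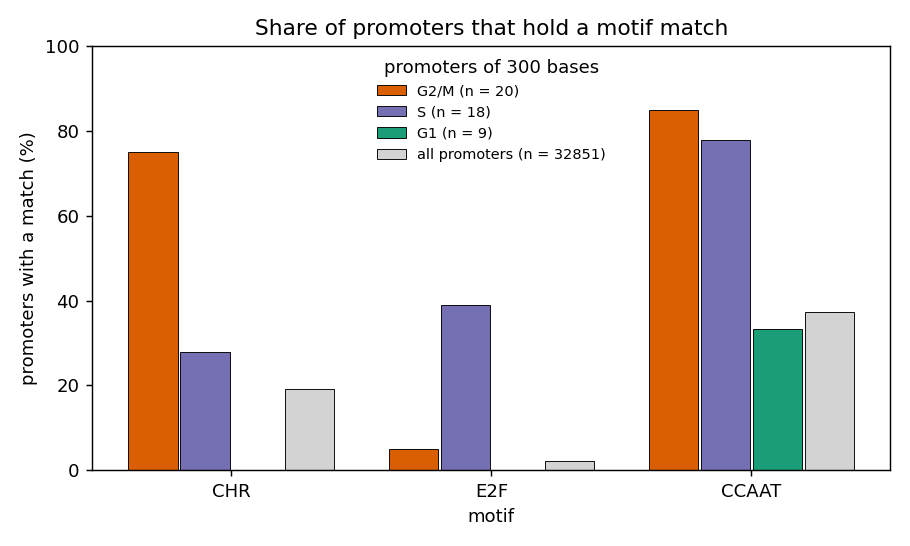
Share of 300-base promoters (y axis, percent) that hold an exact match to the CHR, E2F or CCAAT motif (x axis), for the members of each phase and for all promoters of the table. CHR matches were in 75% of the G2/M promoters and E2F matches in 38.9% of the S-phase promoters, against 19.2% and 2.26% of all promoters.

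Genes of S phase and of mitosis were lower with IFNG than with IL4, and Ccnd2, which encodes cyclin D2, was far higher. In polysome-associated mRNA, 23 of the 49 genes were lower, where 6.58% of all tested features were called lower, and 1 was higher, where 7.54% were called higher. In total mRNA, 22 were lower, against 3.93% of all features, and 1 was higher, against 7.08% (edgeR quasi-likelihood test, Benjamini-Hochberg adjusted p under 0.05 over 10421 features). The higher gene was Ccnd2 in both fractions, and no other gene of the G1 group was called. Of the S-phase genes, 8 of 18 were lower in polysome-associated and 7 in total mRNA. Of the G2/M genes, 15 of 23 were lower in each fraction. In these bulk samples, fewer dividing cells and less of each mRNA per cell cannot be told apart.

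The median log2 fold change of the 23 G2/M genes was -2.23 in polysome-associated and -2.13 in total mRNA. For the 18 S-phase genes it was -1.24 and -1.26, and for the 8 G1 genes -0.06 and 0.62. Over all tested features the median was -0.06 in polysome-associated and 0.04 in total mRNA. The 3 IFNG libraries lay below all 3 IL4 libraries for 32 of the 49 genes in polysome-associated mRNA (16.0% of all features) and for 31 in total mRNA (12.3%). They lay above them for 2 genes in polysome-associated mRNA (15.2% of all features) and for 4 in total mRNA (13.4%). Between libraries of the same number, 40 genes were lower with IFNG in all 3 polysome pairs and 38 in all 3 total pairs. The labels do not link these numbers across treatments, and the share over all features was not computed for this count. The 42 genes with a row of their own held 20 of the 23 lower calls in polysome-associated mRNA and 19 of the 22 in total mRNA.

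**Figure D2:**
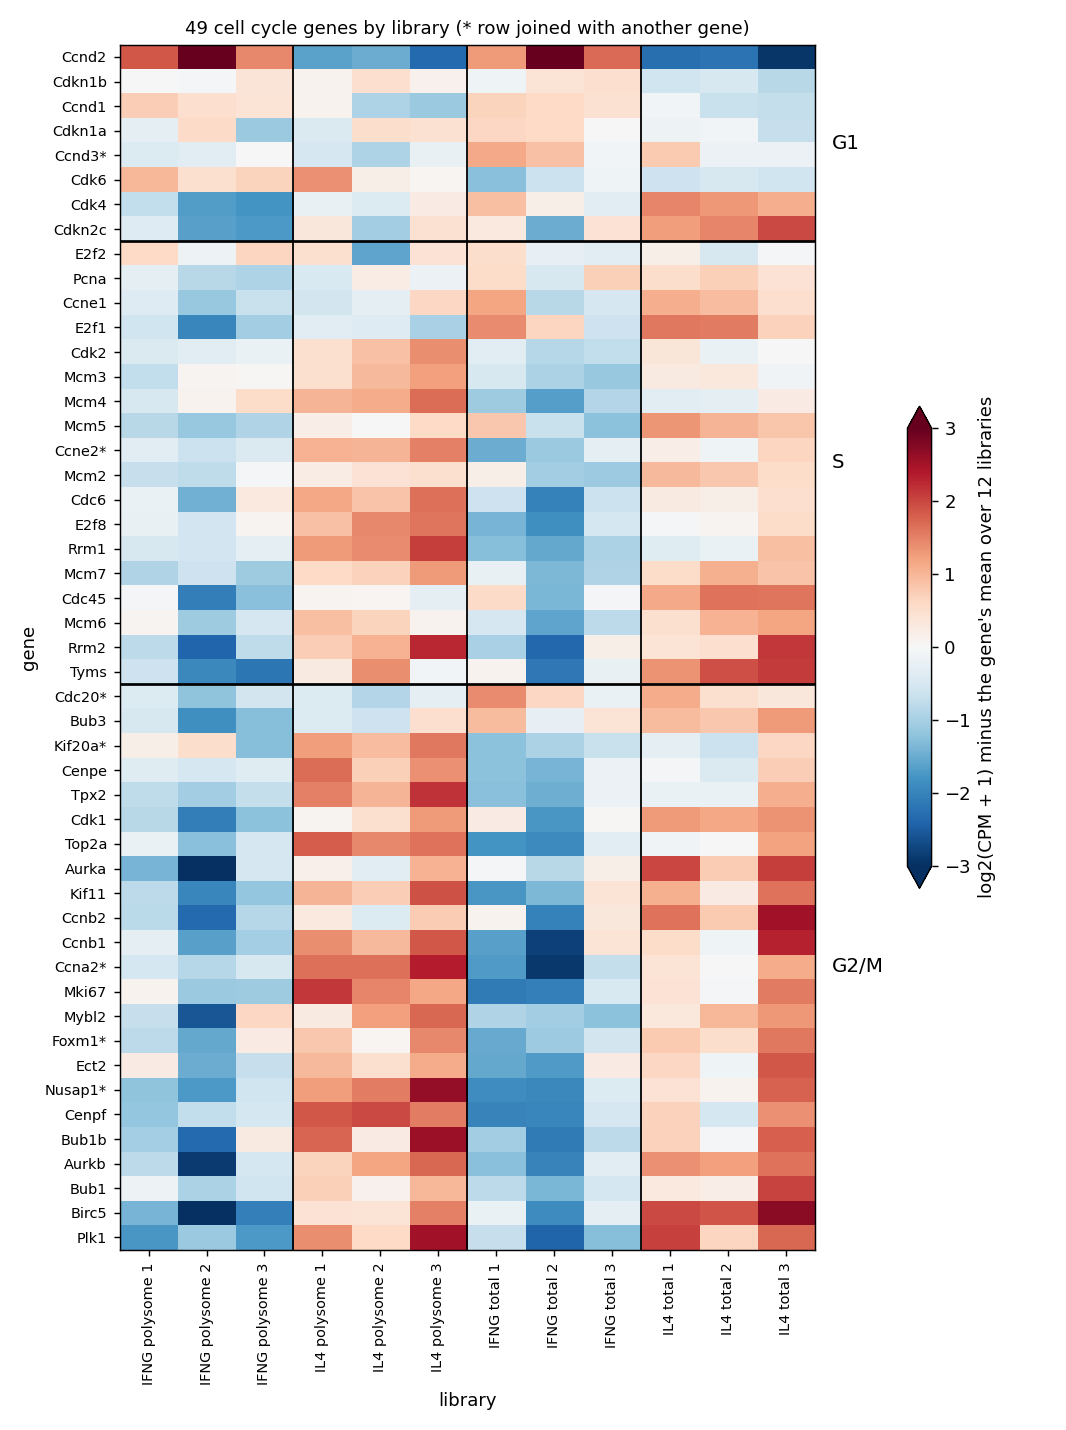
Level of the 49 genes (rows, grouped by phase) in the 12 libraries (columns), as log2(CPM + 1) minus the gene's mean over the libraries; red is above and blue below the mean, and colours stop at 3 in either direction. Ccnd2 in the top row runs opposite to most rows below it, which are bluer in the 3 IFNG columns of each fraction and redder in the 3 IL4 columns.

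The levels of the phase groups varied between replicates as well as between treatments. Summed over the 18 G2/M genes with rows of their own, the level was 272, 121 and 221 CPM in the IFNG polysome libraries (replicates 1, 2 and 3), against 928, 721 and 1203 CPM in the IL4 polysome libraries. In total mRNA it was 328, 149 and 387 CPM with IFNG, against 872, 676 and 1363 CPM with IL4. The groups did not overlap, with replicate 2 lowest in each group. Over the 17 S-phase genes with own rows, the sum was 512, 435 and 531 CPM in IFNG polysome against 944, 1089 and 1424 CPM in IL4 polysome libraries, and 775, 377 and 543 CPM in IFNG total against 1065, 1073 and 1095 CPM in IL4 total libraries. These groups did not overlap either.

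The number of lower genes leaned on single libraries. Without IFNG polysome replicate 2 it was 13 in polysome-associated mRNA, and without IL4 polysome replicate 3 it was 14, against 23 with all libraries. Without IFNG total replicate 2 it was 10 in total mRNA, and without IL4 total replicate 3 it was 7, against 22. No gene was called in the opposite direction under any of the 20 alternatives, and the estimates of 42 genes in polysome-associated and 40 in total mRNA stayed below 0 in all of them. Genes called lower in every alternative were Ccne2, Mcm7, Rrm1, Mki67, Top2a, Ccna2, Plk1, Aurkb, Birc5, Cenpf, Nusap1 and Tpx2 in polysome-associated mRNA, and Mcm6, Tyms, Ccna2, Plk1, Aurkb and Birc5 in total mRNA.

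Cyclin D2 was the member with the largest change. Ccnd2 (chromosome 6, 127125162 to 127152188 of GRCm38), whose protein activates CDK4 and CDK6 in G1, measured 736, 2363 and 552 CPM in the IFNG polysome libraries, against 65.5, 71.9 and 39.3 CPM in the IL4 polysome libraries. In total mRNA it measured 492, 1693 and 657 CPM with IFNG, against 41.3, 42.7 and 25.9 CPM with IL4. Each IFNG library lay far above every IL4 library of its fraction, and replicate 2 was the highest in all 4 groups. It was 20.6-fold higher with IFNG in polysome-associated mRNA (log2 fold change 4.37, SE 0.61, edgeR adjusted p = 2.98e-05) and 25.9-fold higher in total mRNA (4.69, SE 0.62, edgeR adjusted p = 1.2e-05). Over the 20 alternatives, its log2 fold change was 3.45 to 4.81 in polysome-associated and 3.90 to 4.96 in total mRNA, and it was called in all of them.

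The other D-type cyclins did not follow it to that extent. Ccnd1 (chromosome 7, 144929931 to 144939831), which encodes cyclin D1, measured 1530, 1290 and 1219 CPM in IFNG polysome against 973, 483 and 419 CPM in IL4 polysome libraries, and 1451, 1379 and 1257 CPM in IFNG total against 859, 574 and 559 CPM in IL4 total libraries. The IFNG libraries lay above the IL4 libraries in both fractions without overlap. The log2 fold change was 1.11 in polysome-associated mRNA (SE 0.41, edgeR adjusted p = 0.0802) and 1.04 in total mRNA (SE 0.41, edgeR adjusted p = 0.125), short of the threshold. With the replicate number as a block in the edgeR model it passed, at 1.18 (adjusted p = 0.0263) and 1.08 (adjusted p = 0.049), so that 2 of the 49 genes were then higher in each fraction. In polysome-associated mRNA 2 were also higher when IL4 polysome replicate 1 or IFNG total replicate 3 was left out. The row of Ccnd3, joined with Bysl, measured 154, 163 and 207 CPM in IFNG polysome against 145, 108 and 174 CPM in IL4 polysome libraries, and 456, 379 and 193 CPM in IFNG total against 357, 180 and 183 CPM in IL4 total libraries. Its groups overlapped in both fractions, with log2 fold changes of 0.29 and 0.51 (edgeR adjusted p = 0.716 and 0.584).

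The make-up of D-type cyclin reads also differed between treatments. Ccnd2 took 30.4, 61.9 and 27.9% of the reads of the 3 D-cyclin rows in the IFNG polysome libraries, against 5.54, 10.9 and 6.22% in the IL4 polysome libraries. In total mRNA its share was 20.5, 49 and 31.2% with IFNG, against 3.28, 5.35 and 3.37% with IL4. The widest 95% Wilson interval among these shares was that of IL4 polysome replicate 2, 9.53 to 12.3%, with 203 of 1870 reads. The shares are of reads and not of molecules, they are not adjusted for transcript length, and the Ccnd3 row includes reads of Bysl. Intervals cover counting error only, since reads without molecular identifiers are not independent molecules.

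**Figure D3:**
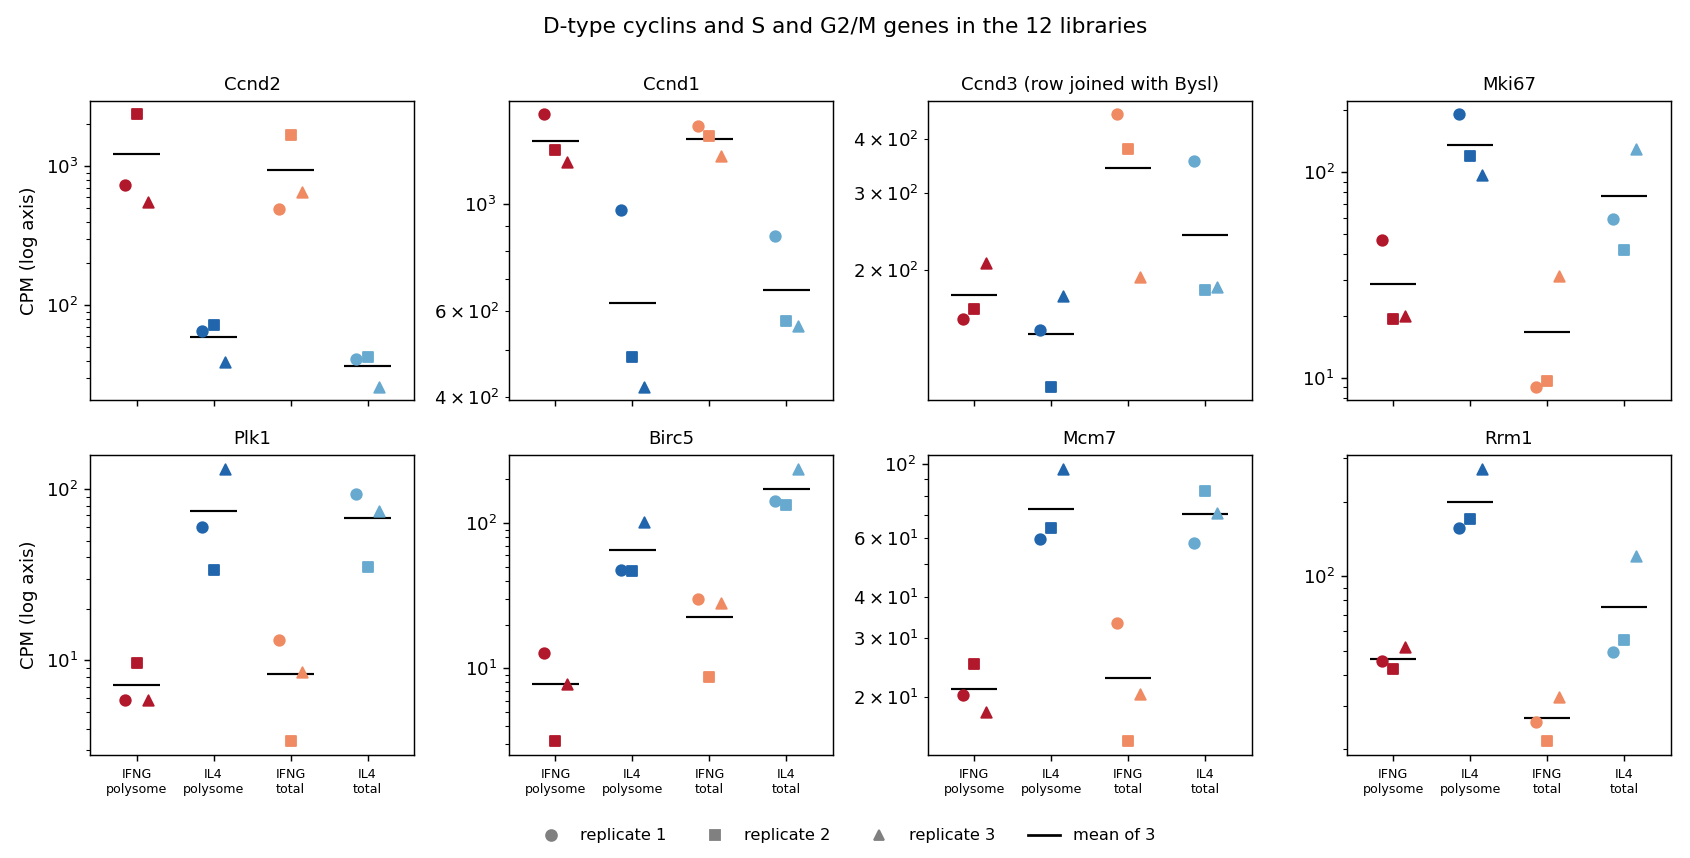
Level of 8 genes in each library (CPM, log axis; symbols mark the replicate number, lines the mean of 3 libraries), with IFNG left of IL4 within each fraction. Ccnd2 lies at 552 to 2363 CPM in IFNG polysome against 39.3 to 71.9 CPM in IL4 polysome libraries, while Mki67, Plk1, Birc5, Mcm7 and Rrm1 lie lower in all IFNG than in all IL4 libraries of the same fraction.

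The kinases that D-type cyclins activate did not share the rise of Ccnd2. Cdk4 measured 105, 54.2 and 49.9 CPM in IFNG polysome against 150, 133 and 208 CPM in IL4 polysome libraries, and 333, 200 and 141 CPM in IFNG total against 488, 439 and 376 CPM in IL4 total libraries. Every IFNG library lay below every IL4 library, with log2 fold changes of -1.23 (SE 0.43, edgeR adjusted p = 0.0604) in polysome-associated and -0.95 (SE 0.43, edgeR adjusted p = 0.189) in total mRNA. With the replicate block, Cdk4 in polysome-associated mRNA passed the threshold (-1.33, adjusted p = 0.0231). It was called there in 5 of the 20 alternatives. Cdk6 measured 514, 364 and 409 CPM in IFNG polysome against 669, 294 and 271 CPM in IL4 polysome libraries, and 108, 166 and 235 CPM in IFNG total against 167, 186 and 170 CPM in IL4 total libraries. Those groups overlapped, with log2 fold changes of 0.06 (SE 0.43) and -0.04 (SE 0.43).

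None of the 3 CDK inhibitors among the members was called. Cdkn1a, which encodes p21, a p53 target that binds cyclin-CDK complexes, measured 1110, 2008 and 624 CPM in IFNG polysome against 1002, 1950 and 1843 CPM in IL4 polysome libraries. In total mRNA it measured 2068, 2037 and 1339 CPM with IFNG, against 1211, 1266 and 827 CPM with IL4, which did not overlap. The log2 fold change was -0.36 (SE 0.45, edgeR adjusted p = 0.674) in polysome-associated and 0.72 (SE 0.45, edgeR adjusted p = 0.418) in total mRNA. Cdkn1b, which encodes p27, was low, at 3.70, 3.57 and 5.17 CPM in IFNG polysome against 4.09, 5.67 and 4.16 CPM in IL4 polysome libraries, and 3.30, 5.23 and 5.70 CPM in IFNG total against 2.10, 2.39 and 1.64 CPM in IL4 total libraries. It overlapped in the polysome libraries and was higher without overlap in the total libraries (log2 fold change 1.2, edgeR adjusted p = 0.189). Cdkn2c, which encodes p18, an inhibitor of CDK4 and CDK6, measured 3.35, 0.841 and 0.739 CPM in IFNG polysome against 6.27, 1.77 and 6.81 CPM in IL4 polysome libraries, and 6.02, 1.05 and 6.74 CPM in IFNG total against 12.7, 14.8 and 21.4 CPM in IL4 total libraries. In total mRNA it lay lower without overlap (-1.81, edgeR adjusted p = 0.0777), and with the replicate block it was called lower (-2.16, adjusted p = 0.0128).

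Among the S-phase genes, Rrm2, Tyms and Rrm1, which serve nucleotide supply, had the largest decreases in polysome-associated mRNA. In total mRNA Mcm6 (-1.90) fell more than Rrm1. Rrm1, the large subunit of ribonucleotide reductase, measured 45.4, 42.3 and 51.7 CPM in IFNG polysome against 156, 171 and 272 CPM in IL4 polysome libraries, and 25.7, 21.5 and 32.6 CPM in IFNG total against 49.4, 55.3 and 120 CPM in IL4 total libraries. The IFNG libraries were lower without overlap in both fractions, by -2.10 (SE 0.43, edgeR adjusted p = 0.00171) and -1.49 (SE 0.42, edgeR adjusted p = 0.021) on the log2 scale. Rrm2, its small subunit, averaged 7.74 ± 4.33 CPM in IFNG polysome and 53.7 ± 32.6 CPM in IL4 polysome libraries, and 10.9 ± 9.26 CPM in IFNG total and 44.7 ± 33.3 CPM in IL4 total libraries (SD, n = 3 each). Tyms, thymidylate synthase, averaged 3.18 ± 2.60 and 16.7 ± 10.2 CPM in IFNG and IL4 polysome libraries, and 6.96 ± 4.87 and 38.4 ± 10.0 CPM in IFNG and IL4 total libraries. Rrm2 and Tyms fell in both fractions, with log2 fold changes of -2.79 and -2.26 in polysome-associated and -2.03 and -2.45 in total mRNA. The Rrm2 call in total mRNA (edgeR adjusted p = 0.0442) was kept in 13 of the 20 alternatives. Its level was 24.8, 26.2 and 83.2 CPM in IL4 total replicates 1, 2 and 3.

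The 6 Mcm genes encode the ring of the replicative helicase, and all 6 had negative estimates in both fractions, with medians of -1.17 in polysome-associated and -1.26 in total mRNA. Of them, 1 was called lower in polysome-associated mRNA and 3 in total mRNA. Mcm7 was called in both, at 20.4, 25.2 and 18.1 CPM in IFNG polysome against 59.4, 64.1 and 96.4 CPM in IL4 polysome libraries, and 33.3, 14.8 and 20.5 CPM in IFNG total against 58.0, 82.9 and 71.2 CPM in IL4 total libraries (log2 fold changes -1.78 and -1.63, edgeR adjusted p = 0.00491 and 0.00891). Its groups did not overlap. Mcm2 measured 24.2, 23.3 and 38.8 CPM in IFNG polysome against 47.3, 54.5 and 56.0 CPM in IL4 polysome libraries, and 45.7, 18.8 and 18.2 CPM in IFNG total against 79.1, 71.2 and 58.8 CPM in IL4 total libraries. Again no library overlapped, and only the difference in total mRNA passed (-1.33, edgeR adjusted p = 0.0413; -0.88, edgeR adjusted p = 0.184 in polysome-associated mRNA). Mcm6, whose promoter is printed above with 3 E2F matches, averaged 16.4 ± 6.8 CPM in IFNG polysome and 34.3 ± 9.38 CPM in IL4 polysome libraries, and 11.6 ± 4.39 CPM in IFNG total and 43.2 ± 10.5 CPM in IL4 total libraries (SD, n = 3 each). It was called in total mRNA (-1.90, edgeR adjusted p = 0.00579).

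Mcm3 and Mcm5 also lay lower with IFNG in every library, without passing the threshold. Mcm3 measured 45.8, 80.7 and 79.0 CPM in IFNG polysome against 107, 152 and 180 CPM in IL4 polysome libraries, and 54.6, 39.1 and 34.5 CPM in IFNG total against 92.2, 96.3 and 71.2 CPM in IL4 total libraries (log2 fold changes -1.10 and -1.02, edgeR adjusted p = 0.0656 and 0.109). Mcm5 measured 43.7, 34.9 and 41.0 CPM in IFNG polysome against 90.2, 77.6 and 118 CPM in IL4 polysome libraries, and 137, 48.8 and 32.5 CPM in IFNG total against 196, 160 and 140 CPM in IL4 total libraries (-1.25 and -1.18, edgeR adjusted p = 0.0736 and 0.11). The replicate block brought Mcm5 past the threshold in polysome-associated (-1.28, adjusted p = 0.0393) and total mRNA (-1.32, adjusted p = 0.0388), and Mcm4 in polysome-associated mRNA. Pcna, the sliding clamp of DNA polymerases, measured 116, 79.0 and 73.5 CPM in IFNG polysome against 102, 164 and 125 CPM in IL4 polysome libraries, and 205, 100 and 230 CPM in IFNG total against 203, 231 and 189 CPM in IL4 total libraries. Its groups overlapped in both fractions (-0.54 and -0.22, edgeR adjusted p = 0.427 and 0.866).

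Of the genes that license and fire replication origins, Cdc6 averaged 15.3 ± 8.53 CPM in IFNG polysome and 46.7 ± 13.7 CPM in IL4 polysome libraries and was called lower there (-1.62, edgeR adjusted p = 0.0328). Cdc45, a helicase partner, had estimates of -0.92 and -1.65 with no call. With the replicate block, Cdc6 and Cdc45 were called lower in total mRNA too. Over the 20 alternatives, Cdc6 was called there in 5 and Cdc45 in 10. Cdk2, the kinase of cyclins E and A, measured 54.7, 58.2 and 64.3 CPM in IFNG polysome against 105, 137 and 196 CPM in IL4 polysome libraries, and 58.2, 40.8 and 44.4 CPM in IFNG total against 95.6, 64.2 and 74.7 CPM in IL4 total libraries. It lay lower without overlap in both fractions and was called in polysome-associated mRNA (-1.30, edgeR adjusted p = 0.0254), with -0.71 in total mRNA (edgeR adjusted p = 0.302). The row of Ccne2, cyclin E2 joined with Ints8, fell in polysome-associated mRNA (-1.72, edgeR adjusted p = 0.00879) and in total mRNA it was called with the block and in 3 other alternatives (DESeq2, a 10 CPM filter, and leaving out IFNG total replicate 3), while Ccne1, cyclin E1, had -0.75 and -0.63 with no call.

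The E2F genes themselves did not move as a set. E2f1, an activator, measured 12.9, 4.41 and 9.23 CPM in IFNG polysome against 15.8, 15.2 and 9.83 CPM in IL4 polysome libraries, and 55.3, 32.1 and 12.8 CPM in IFNG total against 62.5, 60.7 and 33.3 CPM in IL4 total libraries. Those groups overlapped in both fractions, since IFNG replicate 1 reached the IL4 range (-0.62 and -0.64, edgeR adjusted p = 0.49 and 0.542). E2f2, another activator, had estimates of 0.38 and 0.14 and was the S-phase gene with an estimate above 0 in both fractions. E2f8, a repressor of E2F targets, averaged 11.9 ± 2.87 CPM in IFNG polysome and 36.7 ± 9.20 CPM in IL4 polysome libraries, and 5.73 ± 3.28 CPM in IFNG total and 16.2 ± 3.96 CPM in IL4 total libraries (SD, n = 3 each), and fell in both fractions (-1.63 and -1.49, edgeR adjusted p = 0.0212 and 0.0365).

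Mitotic regulators gave the largest decreases. Plk1 (chromosome 7, 122159435 to 122169884), the Polo kinase that drives mitotic entry and spindle assembly, measured 5.90, 9.67 and 5.91 CPM in IFNG polysome against 59.8, 33.6 and 131 CPM in IL4 polysome libraries, and 13.2, 3.37 and 8.55 CPM in IFNG total against 93.7, 35.1 and 74.3 CPM in IL4 total libraries. No IFNG library reached the lowest IL4 library. Plk1 was 10.4-fold lower in polysome-associated mRNA (log2 fold change -3.38, SE 0.58, edgeR adjusted p = 0.000304) and 8.02-fold lower in total mRNA (-3, SE 0.56, edgeR adjusted p = 0.000686). Birc5 (chromosome 11, 117849237 to 117855743), survivin of the chromosomal passenger complex, measured 12.7, 3.15 and 7.76 CPM in IFNG polysome against 47.7, 47.1 and 102 CPM in IL4 polysome libraries, and 30.2, 8.72 and 28.3 CPM in IFNG total against 142, 133 and 236 CPM in IL4 total libraries. Its groups were apart as well, 8.15-fold lower in polysome-associated (edgeR adjusted p = 0.000646) and 7.58-fold lower in total mRNA (edgeR adjusted p = 0.00066). Aurkb, the kinase of the same complex, averaged 7.45 ± 5.28 CPM in IFNG polysome and 42.0 ± 15.7 CPM in IL4 polysome libraries, and 7.74 ± 4.97 CPM in IFNG total and 47.0 ± 6.81 CPM in IL4 total libraries (SD, n = 3 each), and fell in both fractions (-2.50 and -2.59).

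Mki67 (chromosome 7, 135689784 to 135716450), the Ki-67 antigen used as a marker of dividing cells, measured 46.7, 19.3 and 19.9 CPM in IFNG polysome against 191, 120 and 96.8 CPM in IL4 polysome libraries, and 9.07, 9.65 and 31.3 CPM in IFNG total against 58.9, 42.1 and 129 CPM in IL4 total libraries. Top2a, the topoisomerase that untangles sister chromatids, measured 52.3, 24.6 and 42.1 CPM in IFNG polysome against 215, 165 and 187 CPM in IL4 polysome libraries, and 16.7, 15.4 and 48.0 CPM in IFNG total against 55.6, 60.2 and 140 CPM in IL4 total libraries. Both genes lay lower with IFNG in every library. Mki67 fell by 2.23 and 2.20 on the log2 scale in polysome-associated and total mRNA (edgeR adjusted p = 0.00788 and 0.00876), and Top2a fell by 2.25 and 1.68 (edgeR adjusted p = 0.00358 and 0.0272). The call of Mki67 in total mRNA was lost in 1 of the 20 alternatives, without IL4 total replicate 3, and that of Top2a in 5.

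The mitotic cyclins and their kinase were lower too. The row of Ccna2, cyclin A2 joined with Exosc9, measured 39.3, 30.7 and 40.3 CPM in IFNG polysome against 180, 180 and 297 CPM in IL4 polysome libraries, and 16.8, 6.75 and 34.4 CPM in IFNG total against 75.3, 56.5 and 123 CPM in IL4 total libraries. It did not overlap and fell in both (-2.57 and -2.13, edgeR adjusted p = 0.00123 and 0.00519). Cdk1, the kinase that starts mitosis, averaged 15.2 ± 6.44 CPM in IFNG polysome and 63.8 ± 28.7 CPM in IL4 polysome libraries, and 32.4 ± 18.9 CPM in IFNG total and 94.7 ± 6.74 CPM in IL4 total libraries, and was called in both (-2.06 and -1.54). Ccnb1, cyclin B1, was called in polysome-associated mRNA (-2.41, edgeR adjusted p = 0.0293) and not in total mRNA (-2.12, edgeR adjusted p = 0.0576). Ccnb2, cyclin B2, was called in total mRNA (-2.12, edgeR adjusted p = 0.0275) and not in polysome-associated mRNA (-1.67, edgeR adjusted p = 0.0944). With the replicate block both cyclins were called in both fractions. Over the 20 alternatives, Ccnb1 was called in 8 in total mRNA and Ccnb2 in 2 in polysome-associated mRNA.

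The transcription factors of the G2/M programme were low. The row of Foxm1, joined with 4933413G19Rik, measured 6.70, 3.57 and 14.8 CPM in IFNG polysome against 22.1, 12.7 and 35.2 CPM in IL4 polysome libraries, and 3.61, 5.23 and 8.03 CPM in IFNG total against 21.8, 18.2 and 38.5 CPM in IL4 total libraries. It overlapped in the polysome libraries and was apart in the total libraries, where it fell (-2.22, edgeR adjusted p = 0.00726). In polysome-associated mRNA it had -1.52 (edgeR adjusted p = 0.0653) and was called with the block (-1.57, adjusted p = 0.0142). Mybl2, which encodes B-MYB, had -1.73 (edgeR adjusted p = 0.0792) in polysome-associated mRNA, where it too was called with the block, and -2.20 (edgeR adjusted p = 0.0245) in total mRNA.

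Kinetochore, checkpoint and spindle genes differed in which fraction gave a call. Cenpf, a kinetochore protein with a CHR match in the promoter printed above, averaged 3.84 ± 1.04 CPM in IFNG polysome and 28.4 ± 4.48 CPM in IL4 polysome libraries, and 2.39 ± 2.20 CPM in IFNG total and 12.7 ± 7.92 CPM in IL4 total libraries (SD, n = 3 each), and was called in both fractions (-2.92 and -2.40). Bub1b, which encodes the checkpoint protein BUBR1, Aurka, the centrosomal Aurora kinase, and the row of Nusap1, a spindle microtubule protein, were called in both as well (-2.74 and -2.52, -1.88 and -1.95, -3.28 and -2.37). The Bub1b groups overlapped in the polysome libraries, at 4.14, 1.05 and 11.5 CPM with IFNG against 33.5, 11.3 and 60.9 CPM with IL4. Those of Cenpf overlapped in the total libraries. Cenpe and Kif11, mitotic motors, and Tpx2, an activator of Aurora A, were called in polysome-associated mRNA (-1.84, -3.11 and -2.55). Bub1, a checkpoint kinase, was called in total mRNA (-2.90), at levels of 0.233 to 1.21 CPM with IFNG that come close to 3 counts. Ect2, an exchange factor of cytokinesis, had estimates of -1.65 and -2.28 with no call, and was called in total mRNA with the block, as were Kif11 and Tpx2.

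Bub3 and the rows of Cdc20 and Kif20a were called in neither fraction. Bub3, a checkpoint protein that cells also use outside mitosis, measured 52.8, 19.8 and 29.9 CPM in IFNG polysome against 54.9, 47.5 and 104 CPM in IL4 polysome libraries, and 143, 62.2 and 99.0 CPM in IFNG total against 143, 131 and 181 CPM in IL4 total libraries (-1 and -0.58, edgeR adjusted p = 0.153 and 0.544). The row of Cdc20, an activator of the anaphase-promoting complex joined with Elovl1, measured 217, 127 and 198 CPM in IFNG polysome against 220, 157 and 236 CPM in IL4 polysome libraries, and 780, 452 and 253 CPM in IFNG total against 628, 405 and 370 CPM in IL4 total libraries (-0.18 and 0.08). The groups of both rows overlapped. Kif20a, a kinesin of cytokinesis in a row shared with Brd8 and Cdc23, measured 75.1, 97.3 and 27.0 CPM in IFNG polysome against 160, 127 and 203 CPM in IL4 polysome libraries, and 28.1, 33.8 and 41.4 CPM in IFNG total against 54.2, 42.4 and 103 CPM in IL4 total libraries. It lay lower without overlap in both fractions (-1.29 and -0.95, edgeR adjusted p = 0.0652 and 0.235).

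**Figure D4:**
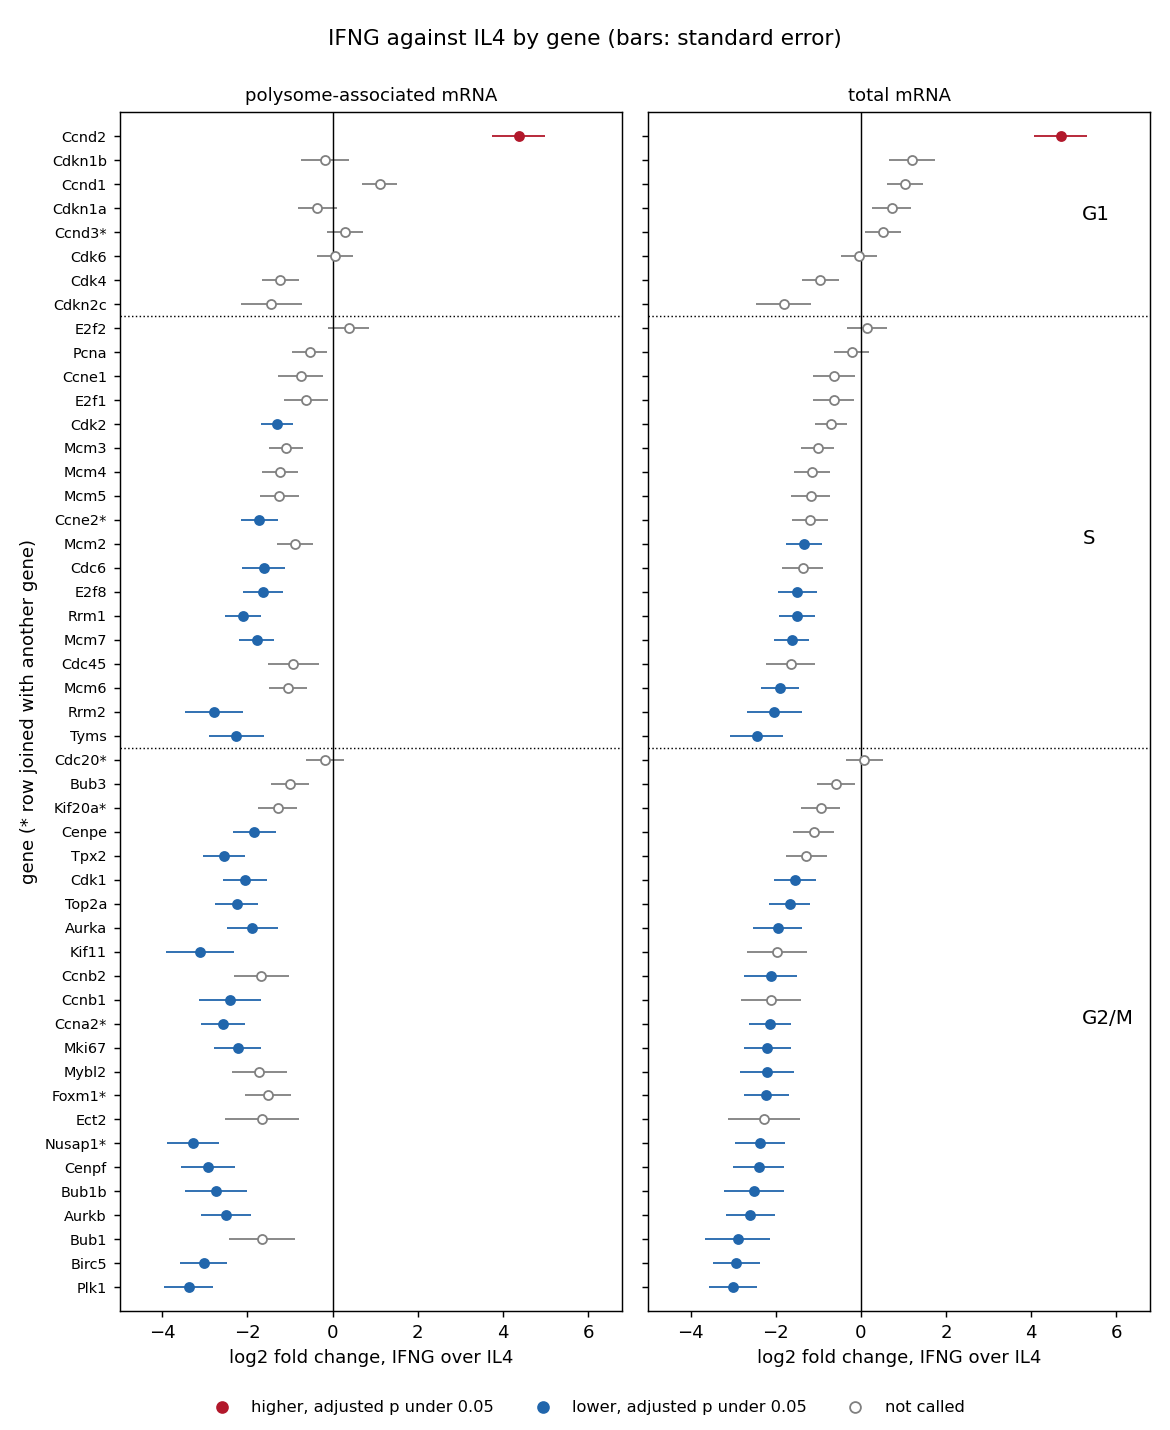
Log2 fold change of IFNG over IL4 (x axis, bars 1 standard error) for each gene (y axis, by phase) in polysome-associated mRNA (left) and total mRNA (right); filled points passed an adjusted p of 0.05. Ccnd2 stands at 4.37 and 4.69, while the G2/M genes lie mostly left of 0, with medians of -2.23 and -2.13.

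Set beside the promoter matches, genes called lower were found both with and without a match. Members without a promoter entry are left out here. Of the 13 G2/M genes whose promoter held a CHR match, 8 were called lower in polysome-associated and 9 in total mRNA, with median log2 fold changes of -2.06 and -2.12. Of the 5 without one, 4 and 3 were called, with medians of -2.41 and -2.20, and Birc5 was among them. Of the 7 S-phase genes with an E2F match, 3 were called lower in polysome-associated and 2 in total mRNA (medians -1.25 and -1.18), against 4 and 5 of the 9 without one (medians -0.92 and -1.49). These are counts of few genes and were not tested.

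The next question of the design is whether polysome-associated mRNA changed differently from total mRNA. The lower calls of the fractions shared 16 genes, 69.57% of the polysome calls and 72.73% of the total calls. Ccne2, Cdk2, Cdc6, Ccnb1, Cenpe, Kif11 and Tpx2 were called in polysome-associated mRNA alone, and Mcm2, Mcm6, Ccnb2, Bub1, Foxm1 and Mybl2 in total mRNA alone. A call in 1 fraction does not show that the fractions differ, and the test of the difference itself, the interaction, called 0 of the 49 genes and 0 of all 10421 features with edgeR (0% in either direction). At an unadjusted p under 0.05 it had 0 of the 49 genes and 176 of all features, the smallest adjusted p over all features was 0.378, and DESeq2 called 0 of the 49 genes and 1 of all features. The median interaction of the 49 genes was -0.22, with a range of -1.38 to 1.24, beside -0.10 over all features. For Ccnd2 it was -0.33 (SE 0.76), and for Tpx2, whose fold changes were -2.55 and -1.28, it was -1.26 (SE 0.67).

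Polysome-associated mRNA was then compared with total mRNA within each treatment, which asks how much of a message was found on heavy polysomes relative to other messages. Both fractions of a preparation came from the same cells, but the main model treated their libraries as unpaired. With IFNG, 2 of the 49 genes were higher in polysome-associated mRNA, where 8.93% of all features were, and 5 were lower, where 17.0% were. With IL4, 6 were higher (13.2% of all features) and 5 lower (15.9%). These shares are near or below those of all features. The genes that were higher in both treatments were Cdk6 and Mcm4, and those that were lower in both were Cdk4, E2f1, Cdc20 and Birc5.

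Cdk6 and Cdk4, the alternative partners of the D-type cyclins, lay on opposite sides. With the levels given above, Cdk6 was higher in polysome-associated than in total mRNA by 1.34 with IFNG (SE 0.43, edgeR adjusted p = 0.0274) and by 1.24 with IL4 (SE 0.43, edgeR adjusted p = 0.0362). Cdk4 was lower, by -1.69 with IFNG (SE 0.44, edgeR adjusted p = 0.00806) and -1.41 with IL4 (SE 0.43, edgeR adjusted p = 0.0197). Each of the 3 preparations of each treatment showed these directions. Ccnd2 was not called in either treatment (0.36 with IFNG and 0.69 with IL4, edgeR adjusted p = 0.642 and 0.34), and with IL4 all 3 preparations lay above 0. Ccnd1 was not called either (-0.02 and -0.09).

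Among the S-phase genes, Mcm4 measured 13.7, 21.0 and 28.8 CPM in IFNG polysome against 8.81, 5.47 and 10.1 CPM in IFNG total libraries, and 40.6, 43.2 and 64.7 CPM in IL4 polysome against 15.2, 15.7 and 23.4 CPM in IL4 total libraries. It was higher without overlap with IFNG (1.36, edgeR adjusted p = 0.0241) and IL4 (1.45, edgeR adjusted p = 0.0157). E2f1 was the most depleted member, at -1.90 with IFNG (edgeR adjusted p = 0.0107) and -1.93 with IL4 (edgeR adjusted p = 0.00983), and with IL4 it was called in all 20 alternatives. Rrm1 was higher with IL4 (1.41, edgeR adjusted p = 0.0165) and had 0.80 with IFNG, and Cdc45 was lower with IL4 (-1.62, edgeR adjusted p = 0.0412) and had -0.90 with IFNG.

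Of the G2/M genes, Birc5 was lower in polysome-associated mRNA with IFNG (-1.49, edgeR adjusted p = 0.0435) and IL4 (-1.38, edgeR adjusted p = 0.0473), as was the Cdc20 row (-1.45 and -1.19, edgeR adjusted p = 0.0206 and 0.0471). Bub3 was lower with IFNG (-1.56, edgeR adjusted p = 0.0158) and, with the replicate block, with IL4 (-1.19, adjusted p = 0.0244). The rows of Ccna2 and Kif20a and the gene Tpx2 were higher with IL4 (1.36, 1.30 and 1.29, edgeR adjusted p = 0.0383, 0.0386 and 0.0457). With the block, Ccna2 was also higher with IFNG (1.15, adjusted p = 0.0335) and Top2a with IL4 (1.29, adjusted p = 0.0205). It further added E2f8 as higher and Aurka as lower with IFNG. With IL4 it added Ccne2, E2f8, Cenpe, Cenpf and Nusap1 as higher, and Cdkn2c (-1.99, adjusted p = 0.0146), Ccnb2 and Aurka as lower. The number of higher genes with the block was 4 with IFNG and 12 with IL4, with 6 lower with IFNG and 9 lower with IL4. The share of all features called with the block is not given here, so these counts cannot be set against it. Over the alternatives that kept all libraries, 483 to 1293 features were higher and 1506 to 1994 lower with IFNG. With IL4, 1190 to 1775 were higher and 1626 to 2293 lower.

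These small counts turned on single libraries. With IFNG, the 2 higher calls became 1 without polysome replicate 1, 0 when polysome replicate 2 or total replicate 1 or 2 was left out, and 8 without total replicate 3, all of them IFNG libraries. The 5 lower calls became 9 without IFNG polysome replicate 1, and 0 when IFNG polysome replicate 2 or IFNG total replicate 1 was left out. With IL4, the 6 higher calls became 2 and 1 without IL4 polysome replicates 1 and 3, 0 without IL4 total replicate 1 or 2, and 3 without IFNG total replicate 2. The 5 lower calls became 1 without IL4 polysome replicate 1 or 2 or IL4 total replicate 1 or 2, and 3 without IL4 total replicate 3. They became 8 without IFNG polysome replicate 1 or any IFNG total replicate, and 9 without IFNG polysome replicate 3.

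**Figure D5:**
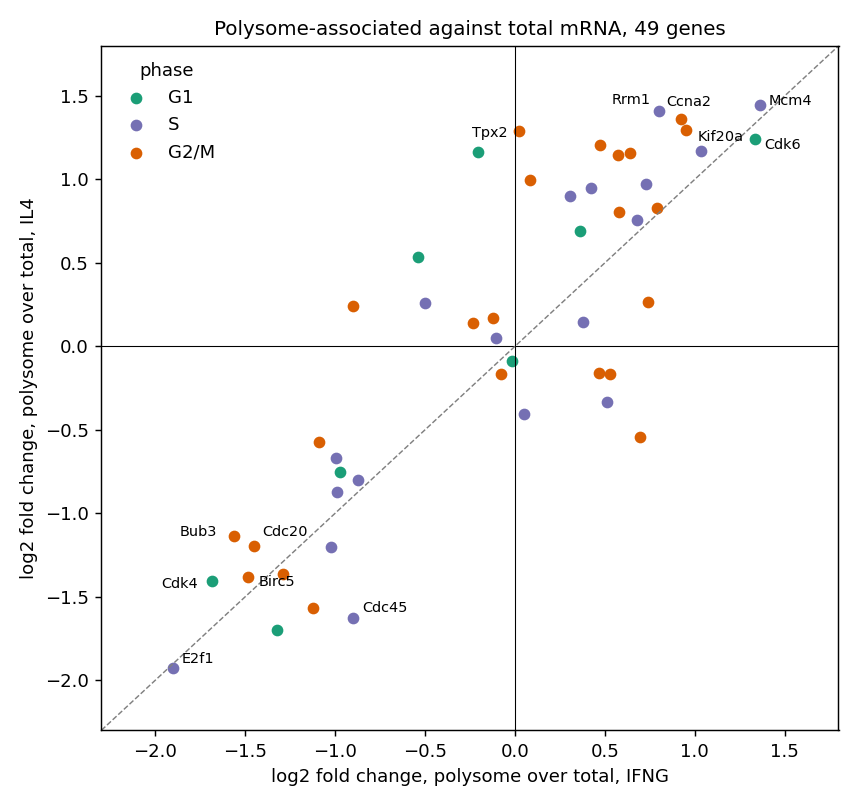
Log2 fold change of polysome-associated over total mRNA with IFNG (x axis) and with IL4 (y axis) for the 49 genes, coloured by phase, with names for genes called in at least 1 treatment and a dashed line of equal values. Cdk6 and Mcm4 lie at the upper right, at 1.34 and 1.36 on the x axis, and E2f1 at the lower left, at -1.90.

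Other genes of the same machinery, from lists of textbook genes, were mostly lower with IFNG too. These lists were chosen with earlier results of these data known, so they are not independent of the members. Over all features, 6.58% were called lower in polysome-associated and 3.93% in total mRNA. Of 40 further mitotic genes, 27 were lower in polysome-associated and 28 in total mRNA and none was higher, with medians of -2.44 and -2.09. Cenpa, the centromeric histone, averaged 9.63 ± 1.02 CPM in IFNG polysome and 76.7 ± 52.8 CPM in IL4 polysome libraries, and 44.2 ± 23.8 CPM in IFNG total and 182 ± 69.0 CPM in IL4 total libraries (SD, n = 3 each). Pttg1, securin, and Racgap1, a cytokinesis factor, fell in both fractions too (-2.68 and -2.42 in polysome-associated, -1.72 and -2.83 in total mRNA). Of 43 replication and repair genes, 18 were called lower in polysome-associated and 14 in total mRNA, and 25 and 29 were not called. Estimates were below 0 for 39 and 40 of them, and reached 0.39 and 0.76 at the highest. Among them were Dnmt1, the maintenance methyltransferase (-1.52), and its partner Uhrf1 (-1.64) in polysome-associated mRNA, Rpa1, a subunit of the single-strand binding protein (-1.60), and the row of Tk1, thymidine kinase joined with Afmid (-2.34), in total mRNA, and the row of Lig1, DNA ligase 1 joined with 6330408A02Rik, in both (-1.75 and -1.17).

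Regulators around this machinery were counted in the same way, beside the 6.58% of all features called lower in polysome-associated and 3.93% in total mRNA, and the 7.54% and 7.08% called higher. Counts near these shares say nothing particular about a list. Of 16 genes of the anaphase-promoting complex and its partners, 2 were lower in polysome-associated mRNA, Anapc11 (-1.53) and the E2 enzyme Ube2c (-2.89), and 1 in total mRNA, Ube2c (-1.92). Of 15 further E2F, retinoblastoma and MuvB genes, 2 were lower in polysome-associated mRNA, the repressor E2f7 (-1.93) and the row of Rbl2, p130 joined with Aktip (-1.24), and 1 in total mRNA, E2f7 (-1.73). Of 12 further CDK inhibitors, phosphatases and related regulators, 4 were lower in polysome-associated mRNA, among them Cdkn2d (-1.88), Cks2 (-2.66) and the CDK phosphatase Cdc25b (-3.18), and 1 in total mRNA, Cdc25b (-3.33). Of 16 tested p53 targets and partners, 1 was higher and 1 lower in polysome-associated mRNA, and 2 were higher and 1 lower in total mRNA. Mdm2, the ubiquitin ligase of p53, was higher in both (1.97 and 1.57), the row of Plk3, joined with Tctex1d4, was higher in total mRNA (1.40), and Sesn1 was lower in both (-2.24 and -2.05).

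Markers of myeloid progenitors, which divide in bone marrow, were followed beside the mitotic genes. Of the 8 genes of that list, Flt3 had 0 counts, and Kit, Mpo, Elane, Prtn3, Ctsg and Myb had 2 to 23 counts in all 12 libraries together. The summed level of the list was 2.73 to 21.4 CPM in IFNG polysome, 11.3 to 31 CPM in IL4 polysome, 3.95 to 21.2 CPM in IFNG total and 17.2 to 48.9 CPM in IL4 total libraries, nearly all of it from Cd34. Cd34 measured 7.49, 2.73 and 20.7 CPM in IFNG polysome against 12.8, 11 and 29.9 CPM in IL4 polysome libraries, and 9.77, 2.91 and 18.9 CPM in IFNG total against 19.2, 16.9 and 48.6 CPM in IL4 total libraries. It thus lay lower with IFNG in each pair of libraries of the same number, without passing the threshold (-0.83 and -1.42, edgeR adjusted p = 0.474 and 0.205), and its part in the result was not tested. Other cell types were followed too. Pf4, a megakaryocyte marker, measured 116, 35.9 and 78.3 CPM in IFNG polysome against 155, 328 and 228 CPM in IL4 polysome libraries and was called lower there (-1.62, edgeR adjusted p = 0.0276), while Itga2b, Gp9 and Gp1bb had 19, 1 and 38 counts over all libraries. In total mRNA Pf4 measured 512, 336 and 766 CPM with IFNG against 809, 1104 and 527 CPM with IL4. Those groups overlapped, and Pf4 was not called (-0.6). The 8 neutrophil markers summed to 34 to 41.4 CPM in IFNG polysome, 15.1 to 23.4 CPM in IL4 polysome, 47.1 to 57.5 CPM in IFNG total and 12.9 to 57.0 CPM in IL4 total libraries. Of them S100a9 was called higher in total mRNA (7.45, edgeR adjusted p = 0.000426), and Ly6g had 4 counts over all libraries. S100a9 measured 1.46, 1.4 and 15.5 CPM in IFNG total against 0, 0 and 0.063 CPM in IL4 total libraries. Its fold change therefore rests on IL4 values at the floor, and its IFNG level mostly on replicate 3. The 8 stromal and endothelial markers summed to 7.39 to 48.4 CPM in IFNG polysome, 11.7 to 15.0 CPM in IL4 polysome, 2.94 to 14.5 CPM in IFNG total and 6.77 to 13.2 CPM in IL4 total libraries. Of the 5 tested in polysome-associated mRNA, 3 had estimates above 0 and 2 below. Only Pecam1 was called, as lower (-3.88, edgeR adjusted p = 0.041). It measured 0.352, 0 and 0.369 CPM in IFNG polysome against 1.5, 1.06 and 9.5 CPM in IL4 polysome libraries. Cdh5 lay the other way there, at 2.38 to 5.91 CPM with IFNG against 0.354 to 1.5 CPM with IL4. Markers of B cells reached at most 6.85 CPM, and those of T and NK, erythroid and mast cells at most 0.508 CPM in any library. The part of these cells in the result was not tested. With every library thinned to 2563955 counts, 22 genes were called lower in polysome-associated and 20 in total mRNA, where Rrm1, Top2a, Bub1 and Mybl2 were lost and Cdkn2c and Cdc45 gained.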

How the data were processed

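Polysome-associated and total mRNA were measured by SmartSeq2 RNA-seq in 12 libraries. The deposited tables give whole-number counts per gene and log2 values made by the authors. The submitters' processing notes name HISAT2, HISAT, limma and mm10. Which counter, strand setting and gene models were used is not given in the sources used here, so overlapping and antisense genes cannot be told apart, and 673 of the tested features are joined gene rows. From the deposited counts, filterByExpr kept 10421 features. They were scaled by TMM and fitted in 1 robust quasi-likelihood model with 4 groups (edgeR 4.0.16, limma 3.58.1, R 4.3.3), with Benjamini-Hochberg adjustment over all features and a threshold of 0.05. The scripts were tested on simulated data. Alternatives used DESeq2 1.42.0, limma on the authors' log2 values, RLE scaling, other filters, thinning, a replicate block, only the groups compared, and leaving out each library. The fractions of a preparation came from the same cells per the labels' protocols, and the main model did not use this pairing. The block was the replicate number, shared by IFNG and IL4 libraries, and not the single preparation. Same-numbered libraries also deviated together between treatments, with correlations of 0.1002 to 0.2681 in polysome and 0.1869 to 0.6437 in total libraries. Between libraries of different numbers they were -0.273 to 0.1234 in polysome and -0.5324 to 0.2977 in total libraries, so the ranges overlapped. Deviations from a group mean sum to 0 for each gene, so positive values at the same number pull the others down. The labels do not link the numbers across treatments. Genes whose call the block changed are named beside their values, and several of them were also called under other alternatives. Between fractions, same-numbered libraries had correlations of -0.0081 to 0.3327 with IFNG and 0.0244 to 0.2721 with IL4. Counts for a further motif and for a list of response genes are not reported here. The members, gene lists and tests were chosen with earlier results of these data known. Genes with values in every library were all G1 genes, the 7 S-phase and 7 G2/M genes of highest mean CPM, and E2f1, Plk1 and Foxm1. Text was computed with Python 3.11.15, pandas 2.3.3 and matplotlib 3.10.9.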

Additional observations from a re-analysis of the deposited data

How the results depend on the processing

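No call of the 49 genes reversed under the 20 alternatives. Among the genes given with values in every library, all comparisons and alternatives were counted. Of these values, 2303 did not change status, 75 gained a call and 87 lost one. Unchanged values include those called in neither the main model nor the alternative, such as every interaction value, so 2303 is not a count of kept calls. For IFNG against IL4 in polysome-associated mRNA, the 1 higher gene became 2 with DESeq2, with a filter at a mean of 10 CPM, with the replicate block and with limma on the authors' log2 values, and 1 to 2 when single libraries were left out, while the 23 lower genes became 13 to 25. In total mRNA the 1 higher gene became 2 with the replicate block, and the 22 lower genes became 7 to 27 without single libraries. For polysome-associated against total mRNA with IFNG, the 2 higher genes became 0 with only the groups compared, 4 with the replicate block and 0 to 8 without single libraries, and the 5 lower genes became 0 to 9 without single libraries. With IL4, the 6 higher genes became 12 with only the groups compared, 12 with the replicate block and 0 to 9 without single libraries. The 5 lower genes with IL4 became 8 with DESeq2, 9 without a filter, 8 with the filter at 10 CPM, 10 with only the groups compared, 9 with the replicate block and 1 to 9 without single libraries. The causes were not tested. Shares of all features are not given for every alternative, so these counts of genes are not set against them. Over all features, the 410 lower in total mRNA became 237 without IFNG total replicate 2 and 273 without IL4 total replicate 3, and the 686 lower in polysome-associated mRNA became 355 with IFNG polysome replicate 2 left out and 351 with IL4 polysome replicate 3 left out, 407 with IFNG polysome replicate 3 and 438 with IL4 polysome replicate 2 left out. The 786 higher ones became 496 and 503 when IL4 polysome replicates 2 and 3 were left out in turn. For polysome-associated against total mRNA with IFNG, the 931 higher features became 483 with only the groups compared, 348 and 602 without IFNG polysome replicates 2 and 3, and 297 without IFNG total replicate 1, and the 1769 lower features became 967 with that polysome replicate 2 left out and 935 with that total replicate 1 left out. With IL4, the 1375 higher and 1662 lower features became 841 and 1004 without IL4 polysome replicate 3, 689 and 1070 without IL4 total replicate 1, and 515 and 1047 without IL4 total replicate 2. The interaction called 1 higher and 4 lower features without a filter, and 1 lower with DESeq2 or limma; it uses all groups, so fitting only the groups compared was not run for it. Precision is lowest for genes near 3 counts, which stood for 0.184 to 1.13 CPM.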
